A study of Mus musculus with 12 samples.

Results

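The 651 transcription start site (TSS) windows described here held more ChIP signal for acetylation of histone H3 at lysine 14 (H3K14ac) than input in proliferating mouse neural stem and progenitor cells (NSPCs), and still stood above a set level after differentiation had been induced. All but 2 of them belong to nuclear genes. They were selected on measured values by 3 conditions. The input count was at least 10 in both stages, the proliferating level P was at least 1, and the differentiating level D was at least 0.7. P is the log2 ratio of the share of counts that a window held in the summed proliferating wild-type (WT) ChIP libraries to its share in the proliferating input, and D is the same ratio for the differentiating libraries. Of 27095 windows, 19283 passed the input minimum (the eligible windows), and the 651 retained windows were 3.38% of them. A window spans the first 1000 bases of a gene, so levels of different genes are compared over the same length, except in genes shorter than that.

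The cells came from the cortex and ganglionic eminences of foetuses at embryonic day 14.5. The proliferating groups were grown as neurospheres, and the differentiating groups were dissociated neurospheres plated on laminin and fed cortical neuron medium, with no time given. For each stage there were 3 libraries of WT cells immunoprecipitated with an anti-H3K14ac antibody (Abcam ab52946), 1 input library of WT cells, 1 IgG control and 1 H3K14ac ChIP library from Hbo1 null cells. Hbo1 is another name of Kat7. No genotype was given for the IgG libraries, and no label says how or in which cells Hbo1 was deleted. The study names 4 WT foetuses, but which foetus or culture a replicate number stands for is not given in the sources used here. The p-values therefore measure only how far libraries spread, and that spread may be technical.

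H3K14ac is found near the start sites of active genes and is laid down by several acetyltransferases, among them HBO1, which works in complexes with BRPF or JADE scaffold proteins and a few small subunits. In forebrain progenitors, start sites of genes for self-renewal, signalling and basic cell functions are generally in an open, acetylated state. Such start sites often lie in CpG islands, stretches rich in the dinucleotide CpG.

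Gene body totals were 3992697 to 7611239 counts for proliferating WT libraries and 12549913 to 17074249 for differentiating ones. They were 11871306 and 12689734 in the inputs, 2526252 and 2771713 in the IgG controls, and only 64071 and 320601 in the null libraries. The gene body of Kat7, the targeted gene, held 4 counts in the proliferating null library (62.4 per 1e6 gene body counts, exact Poisson 95% interval 17.0 to 160) and 11 in the differentiating one (34.3, interval 17.1 to 61.4). The 6 WT libraries held 26.9 to 37.9 per 1e6. A count over the whole gene does not check the deletion of a part of it. Genes of the Y chromosome present in a single copy held 22.9, 4.51 and 4.20 counts per 1e6 in proliferating WT replicates 1 to 3, and 3.98, 5.55 and 120 in the differentiating replicates. They held 3.20 and 3.86 in the inputs and 120 and 133 in the IgG controls, so the libraries differed in their content of Y chromosome DNA.

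The start regions shown are of the 6 retained genes with the highest D that had an entry in the RefSeq promoter table (GRCm38, mm10). They were chosen by D and not by sequence. CpG is marked because it was more frequent at retained than at eligible start regions, as it was at those of the lost windows defined below. Each runs 5′ to 3′ from 250 bases before to 50 bases after a RefSeq start, with CpG in capitals. Chaserr lies at chr7:73558346-73558645 on the minus strand, Tnrc18 at chr5:142817613-142817912 on the minus strand and Zfp326 at chr5:105876318-105876617 on the plus strand. Zc3h6 lies at chr2:128967152-128967451 and Mcl1 at chr3:95658471-95658770, both on the plus strand, and Irf2bpl at chr12:86884765-86885064 on the minus strand. The files do not give the position of the authors' windows, so the printed start may differ from the counted one. Those of Tnrc18 and Mcl1 lie inside the RefSeq span of the gene.
Chaserr: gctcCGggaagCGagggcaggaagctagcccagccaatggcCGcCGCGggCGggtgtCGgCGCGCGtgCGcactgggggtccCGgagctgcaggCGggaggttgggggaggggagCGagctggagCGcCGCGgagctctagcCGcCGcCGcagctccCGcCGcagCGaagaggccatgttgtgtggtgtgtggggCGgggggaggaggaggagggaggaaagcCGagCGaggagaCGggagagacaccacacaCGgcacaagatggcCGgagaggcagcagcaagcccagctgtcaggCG
Tnrc18: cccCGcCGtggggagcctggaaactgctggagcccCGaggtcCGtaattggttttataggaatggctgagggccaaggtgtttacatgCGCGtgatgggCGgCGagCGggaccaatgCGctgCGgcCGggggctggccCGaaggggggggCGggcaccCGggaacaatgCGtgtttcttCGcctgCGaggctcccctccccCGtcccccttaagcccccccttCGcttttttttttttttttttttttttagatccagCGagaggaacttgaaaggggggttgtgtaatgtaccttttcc
Zfp326: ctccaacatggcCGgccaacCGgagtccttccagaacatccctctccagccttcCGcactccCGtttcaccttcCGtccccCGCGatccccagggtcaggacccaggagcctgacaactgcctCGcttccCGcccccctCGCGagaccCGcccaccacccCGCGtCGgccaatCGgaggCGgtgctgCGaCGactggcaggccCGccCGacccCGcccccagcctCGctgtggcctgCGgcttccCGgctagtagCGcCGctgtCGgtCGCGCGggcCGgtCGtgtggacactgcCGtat
Zc3h6: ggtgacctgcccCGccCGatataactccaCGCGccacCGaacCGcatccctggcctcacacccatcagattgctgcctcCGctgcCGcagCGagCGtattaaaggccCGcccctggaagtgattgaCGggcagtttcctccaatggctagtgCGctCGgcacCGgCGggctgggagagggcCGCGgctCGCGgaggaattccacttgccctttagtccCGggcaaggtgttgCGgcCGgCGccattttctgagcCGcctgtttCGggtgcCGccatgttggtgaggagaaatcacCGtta
Mcl1: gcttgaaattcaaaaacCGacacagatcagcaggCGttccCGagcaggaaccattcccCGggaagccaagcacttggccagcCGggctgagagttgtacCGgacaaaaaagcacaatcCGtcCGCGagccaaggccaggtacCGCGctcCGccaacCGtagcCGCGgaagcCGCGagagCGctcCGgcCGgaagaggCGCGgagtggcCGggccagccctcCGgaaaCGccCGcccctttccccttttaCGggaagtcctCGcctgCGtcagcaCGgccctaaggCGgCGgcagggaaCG
Irf2bpl: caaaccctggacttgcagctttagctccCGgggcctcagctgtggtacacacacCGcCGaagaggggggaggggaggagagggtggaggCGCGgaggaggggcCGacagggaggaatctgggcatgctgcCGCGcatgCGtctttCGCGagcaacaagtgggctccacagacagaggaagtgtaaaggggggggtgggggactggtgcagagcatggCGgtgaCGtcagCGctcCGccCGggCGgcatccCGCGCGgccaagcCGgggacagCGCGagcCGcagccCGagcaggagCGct
These 6 sequences held 30, 21, 34, 28, 33 and 26 CpG in that order. The median was 27 over the 512 retained genes with an entry, 24 over the 2168 lost and 14 over the 13994 eligible ones.

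Retained windows were lower after differentiation than before it, despite the name. The median P was 1.64 (range 1.00 to 3.02) and the median D 0.90 (0.70 to 1.99), and the median of D minus P was -0.68 on the log2 scale. D was above P in 9 of the 651 windows (1.38%), in none of the lost windows defined below and in 30.1% of eligible windows, whose median D minus P was -0.35. Both bars of the rule act on these values, so they are a description. P was at least 2 in 139 windows and D at least 1 in 211, while 153 (23.5%) had a D between 0.7 and 0.8. The threshold on D thus cut through a dense part of the distribution. Meis1, a homeobox gene, Mpped2 and Etv3, an ETS-family repressor gene, lay just inside it, each with a D of 0.70, and Minpp1, Pcm1 and Sh3bp5 just outside it, also at 0.70 after rounding. Differentiating WT held 2.15, 2.19 and 1.82 counts per 1e6 at Meis1 (15 input counts) and 2.47, 1.10 and 1.76 at Pcm1 (13 input counts), so windows on either side of the threshold were alike in level. Windows with P of at least 1 numbered 3390, or 17.6% of eligible windows, and 19.2% of these were retained. The other 2739 are called lost windows below, although their D only fell short of 0.7.

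**Figure D1:**
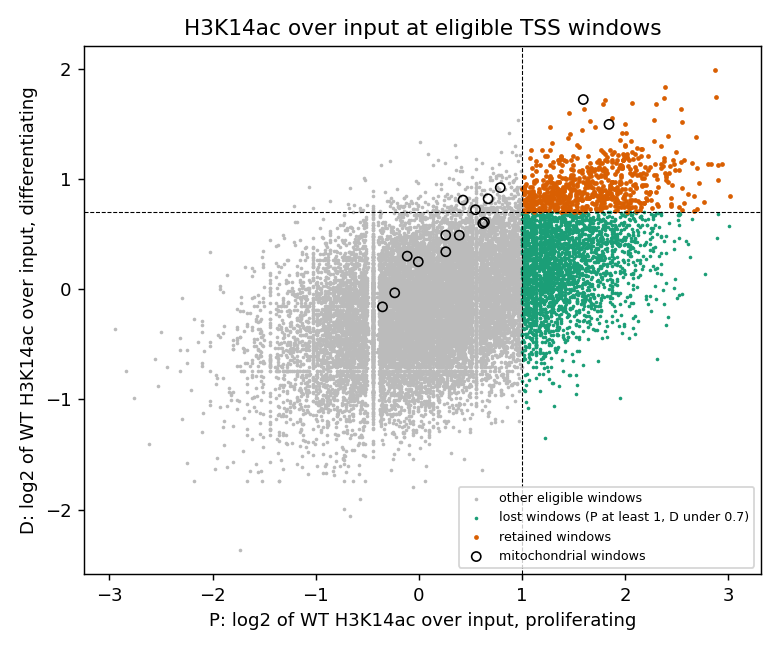
Each point is an eligible TSS window, with P (log2 of WT H3K14ac over input in proliferating cells) on the x axis and D (the same in differentiating cells) on the y axis. Dashed lines mark P of 1 and D of 0.7, and the 651 retained windows fill the upper right corner, most of them close to the lower line, with the mitochondrial windows ringed.

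Single libraries gave the same order in most of these windows. In the proliferating libraries 648, 650 and 651 of the 651 windows were above input, and in the differentiating ones 651, 640 and 651. All 6 libraries were above input in 636 windows (97.7%), against 15.9% of eligible windows, and since these libraries chose the windows this is a description only. Only 206 windows reached the thresholds in every library taken alone. Differentiating replicate 2 was the lowest library. When it was left out of the rule, 896 windows were chosen, and their median log2 level in that left-out library was 0.57, with 37.8% of them at 0.7 or more against 5.52% of eligible windows. Leaving out differentiating replicate 1 chose 481 windows, of which 88.8% reached 0.7 in it (14.3% of eligible windows), and leaving out replicate 3 chose 813, of which 57.3% did (6.35%). For the 3 proliferating replicates, 78.9%, 91.1% and 89.4% of the windows chosen without the replicate reached 1 in it, against 20.8%, 22.8% and 20.2% of eligible windows. These shares still rest on the same inputs.

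Summed over the 649 retained windows of nuclear genes, the proliferating WT libraries held 2299, 3149 and 2718 counts per 1e6 gene body counts (2722 ± 425, SD, n = 3). The differentiating WT libraries held 1562, 1083 and 1255 (1300 ± 243, SD, n = 3). The inputs held 789 and 624. No differentiating library reached the lowest proliferating one. The same held over all 19268 eligible nuclear windows, with 34982 to 35382 counts per 1e6 in proliferating WT libraries and 23096 to 27095 in differentiating ones. At the retained windows, where the rule asked for an excess, all 6 libraries stood above their input, by 2.91, 3.99 and 3.45 times in proliferating and 2.50, 1.73 and 2.01 times in differentiating cells.

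The IgG and null libraries, which had no part in the rule, stood much closer to input. The IgG controls held 888 (proliferating) and 651 (differentiating) counts per 1e6 over the 649 windows. This was 1.13 (exact Poisson 95% interval 1.08 to 1.17) and 1.04 (0.995 to 1.09) times the input. The null libraries held 734 (47 counts, exact Poisson 95% interval 539 to 975) and 639 (205 counts, 555 to 733), or 0.930 times (0.683 to 1.24) and 1.02 times (0.889 to 1.17) the input. Intervals cover counting error only. Over all eligible nuclear windows IgG held 0.920 and 0.771 times the input, and the null libraries 0.703 and 0.755 times. Both controls thus also stood higher over input at retained windows than at eligible ones. The rule used the input, and a low input raises every ratio to it by construction. Over all retained and all eligible windows, the mean log2 count per 1e6 of differentiating input was 0.06 and 0.41. That of differentiating IgG was 0.30 and 0.25. In proliferating cells the means were 0.36 and 0.47 for input and 0.69 and 0.53 for IgG. The null over IgG ratio, which uses no library of the rule, was 0.826 (0.605 to 1.10) before differentiation and 0.982 (0.846 to 1.14) after it was induced. Over the lost windows it was 0.807 and 0.977, and over all eligible nuclear windows 0.764 and 0.980. The null libraries thus showed no excess over IgG at retained windows in either stage at this depth. The WT sums, from libraries the rule used, were 3.05 (2.92 to 3.18) and 1.99 (1.90 to 2.08) times IgG, against 2.51 and 1.5003 at lost and 1.47 and 1.27 at eligible nuclear windows. In single windows the null libraries are too shallow to read, with 604 and 487 of the 651 windows at 0 counts.

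**Figure D2:**
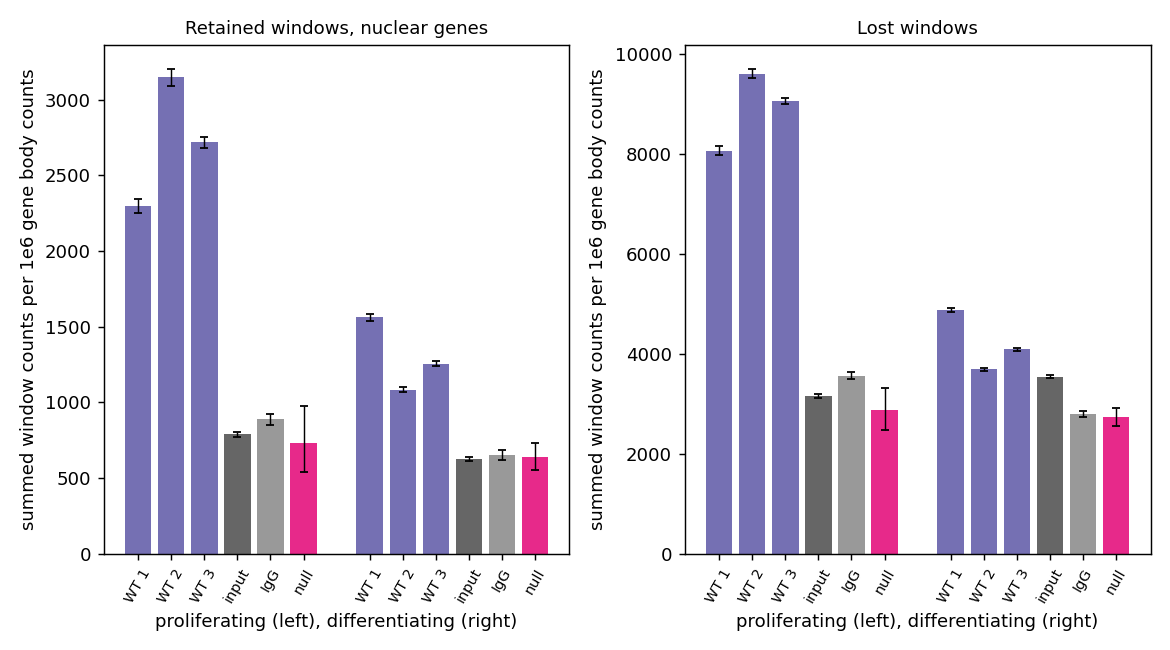
Bars give the summed window counts per 1e6 gene body counts of each library over the 649 retained nuclear windows (left panel) and the 2739 lost windows (right panel), with exact Poisson 95% intervals. At retained windows the WT bars stand above input, IgG and null in both stages, as the rule requires of WT and input. At lost windows the differentiating WT bars lie closer to the input bar, from which the rule set them, but above the IgG and null bars, at 1.5003 and 1.54 times their level.

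The remaining 2 retained windows, ATP8 and ND3, encode subunits of ATP synthase and of respiratory complex I on the mitochondrial genome, which carries no histones. Of 15 eligible mitochondrial windows, these 2 (13.3%) were the only members and the only ones with a P of at least 1. A D of at least 0.7 was reached by 6 of the 15, against 983 of all 19283 eligible windows. The median D of the mitochondrial windows, 0.60, was the highest of any chromosome. ATP8, a gene of 204 bases, held 13.0, 62.9 and 67.7 counts per 1e6 in proliferating WT, 31.4, 46.0 and 66.8 in differentiating WT, 16.8 and 15.1 in the inputs and 47.1 and 71.1 in IgG. ND3 held 21.8, 133 and 118, then 53.7, 84.5 and 130 in WT, 26.3 and 33.3 in the inputs and 41.2 and 67.8 in IgG. Proliferating replicate 1 was below input at both. The null libraries held more than WT here, with a summed null over IgG ratio of 3.71 (2.25 to 5.82) and 2.04 (1.61 to 2.57). Including both windows turned the null sum over all 651 windows to 1.28 and 1.37 times input and the IgG sum to 1.17 in each stage. Mitochondrial windows took 1.97% to 9.91% of TSS counts in WT, 6.32% and 5.79% in input, 7.42% and 12.9% in IgG, and 16.7% and 16.2% in null libraries. The part of this in the result was not tested.

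Retained and lost windows differed almost as much in the input as in the ChIP. The mean D was 0.95 in retained and 0.19 in lost windows, a difference of 0.76, to which the WT libraries added 0.40 (52.0%) and the differentiating input 0.37 (48.0%). The median differentiating input count was 12 at retained, 16 at lost and 16 at eligible windows, and the median proliferating input count was 14, 13 and 15. The input is the denominator of D, so a low input count raises D by construction. In 605 retained windows (92.9%) the differentiating input count was 10 to 15, and in 148 it was exactly 10, the minimum. Such a count was found in 45.8% of lost and 48.9% of eligible windows. A count of 12 has an exact Poisson 95% interval of 6.20 to 21.0. The differentiating IgG control did not differ between the sets, with a mean log2 count per 1e6 of 0.30 at retained and 0.29 at lost windows.

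The share of windows that were retained fell steeply with the input count. It was 12.3% (296 of 2415) of eligible windows at 10 to 11 differentiating input counts, 6.06% (200 of 3299) at 12 to 13 and 2.93% (109 of 3724) at 14 to 15. It was 0.670% (40 of 5966) at 16 to 19 and 0.155% (6 of 3879) at 20 or more. The 6 include both mitochondrial windows, Usp7, a deubiquitinase gene, Jun, a subunit gene of the AP-1 factor, and Cpeb2, a gene for a regulator of cytoplasmic polyadenylation, which were picked out after their values were seen. Against the proliferating input, 278 of the 651 windows would have a D of at least 0.7. The rule with the inputs exchanged chose 532 windows, of which 276 were among the 651 (42.4% of the 651 and 51.9% of the 532).

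**Figure D3:**
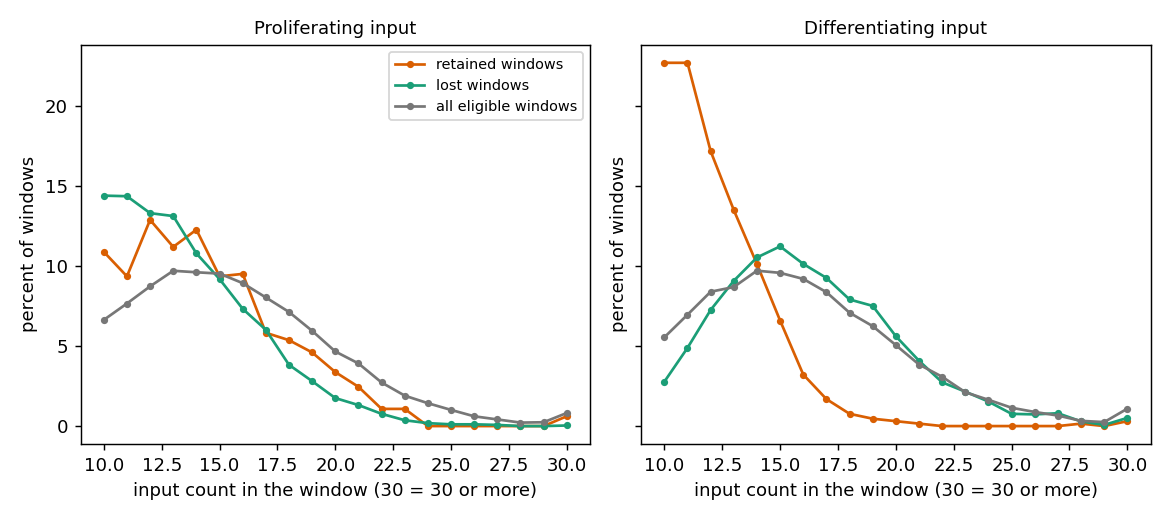
Lines give the percent of retained, lost and all eligible windows (y axis) at each input count (x axis) in the proliferating input (left) and the differentiating input (right). Retained windows crowd at 10 to 15 counts in the differentiating input, where their median is 12, and lost windows do not.

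IgG was not used by the rule but the WT libraries were, so levels over IgG are a description. The median log2 ratio of differentiating WT to IgG was 0.60 in retained and 0.23 in lost windows. All 3 differentiating WT libraries were above IgG in 505 of the 651 windows (77.6%), a share that was not counted over lost or eligible windows. All 6 WT libraries were above the IgG of their stage in 473 (72.7%), against 55.7% of lost and 28.9% of eligible windows. The rule applied with IgG in place of input chose 1101 windows, of which 200 were among the 651 (30.7% of the 651, 18.2% of the 1101), and no mitochondrial window.

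The stage change itself was tested with edgeR over all windows in the 6 WT libraries, and 118 of the 651 retained windows (18.1%) were lower in differentiating cells (Benjamini-Hochberg adjusted p under 0.05), where 4.42% of all tested windows were. None was higher (2.04% of all tested windows were), with 1 at an unadjusted p under 0.05 and none called by DESeq2. Lost windows were lower about as often, in 474 of 2738 (17.3%). The median fitted change was -0.52 on the log2 scale in retained, -0.55 in lost and 0.03 in all tested windows. The change was negative in 611 of the 651, a share that was not counted over all tested windows. As the rule used these libraries, the counts are a description. They depended on single libraries: 34 retained windows were lower without proliferating replicate 3, 55 without proliferating replicate 2, 43 without differentiating replicate 2 and 37 without differentiating replicate 3. Scaling by gene body totals in place of TMM shifted the median of all windows to -0.47 and that of retained windows to -1.02, with 498 lower. Relative to all windows the retained median lay 0.55 lower under either scaling.

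Against IgG, 136 of the 651 windows (20.9%) were higher in WT by edgeR with a stage term (Benjamini-Hochberg adjusted p under 0.05), where 5.13% of all tested windows were. The rule chose members for high counts in these WT libraries, so nothing is read from this excess. The same holds for single genes below, whose WT over IgG differences and calls are a description only. The median fitted difference was 1.32 on the log2 scale over the members and 0.67 over all tested windows. The difference was positive in 645 of the 651, a share that was not counted over all tested windows. No member was lower. The count was 87 without the differentiating IgG library, 89 without proliferating WT replicate 2 and 0 without the proliferating IgG library (129 at an unadjusted p under 0.05), where no window of the table was called. With TMM scaling 8 members were called, and the difference was negative in 68 members, against 6 without it. An IgG window held a median of 3 counts, which limits these calls.

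The highest D belonged to Chaserr, a long non-coding RNA gene (lncRNA, chr7:73539798-73558395) next to Chd2, a chromatin remodeler gene whose expression it restrains. Its window held 7.92, 11.8 and 8.54 counts per 1e6 in proliferating WT, 5.26, 2.35 and 3.63 in differentiating WT, 1.18 and 0.867 in the inputs and 0.792 and 0.722 in IgG. All WT libraries were above both controls, and the stages did not overlap. How often the stages did not overlap over all windows was not counted. On this scale the sums over all eligible nuclear windows did not overlap either, and the rule chose windows for high proliferating counts. Non-overlap in single genes, here and below, is therefore a description. The edgeR change on differentiation was -0.82 (SE 0.26, Benjamini-Hochberg adjusted p = 0.0352), and the WT over IgG difference was 3.04 (SE 0.65, adjusted p = 0.0023), on 2 IgG counts a stage. Chd2 was itself retained, with a P of 1.77 and a D of 0.89.

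Tnrc18 (chr5:142724602-142823668), a chromatin protein gene, held 7.04, 7.26 and 10.2 counts per 1e6 in proliferating and 4.30, 1.96 and 3.16 in differentiating WT, with 1.10 and 0.867 in the inputs. IgG held 4.35 in proliferating cells, well above the input, and 0.361 in differentiating cells. The stage change was -0.92 (SE 0.26, edgeR, Benjamini-Hochberg adjusted p = 0.0171) and the difference from IgG, 1.37, did not pass (adjusted p = 0.0756). Irf2bpl (chr12:86880703-86884814), a gene for a nuclear RING-domain protein, held 6.16, 6.51 and 7.36, then 3.35, 1.33 and 3.16 per 1e6, against inputs of 1.10 and 0.788, and its stage change was -0.85 (SE 0.26, adjusted p = 0.0301). Both genes were thus retained by the rule and also called lower.

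Map4k4 (chr1:39900902-40026310), a kinase gene of stress signalling, held 5.94, 6.26 and 5.39 counts per 1e6 in proliferating and 3.82, 2.43 and 2.81 in differentiating WT, against inputs of 1.60 and 0.867. Zc3h6 (chr2:128967402-129018563), a zinc finger gene, held 3.74, 7.76 and 5.91, then 3.27, 2.03 and 3.51, against 1.10 and 0.867. In both genes the stages did not overlap, and neither passed the stage test, with a change of -0.45 in each. Map4k4 was higher than IgG by 1.89 (SE 0.58) on the log2 scale in edgeR (Benjamini-Hochberg adjusted p = 0.0341).

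A few windows hardly differed between stages or had D above P. Zfp326 (chr5:105876556-105915818), a zinc finger gene whose protein couples transcription to splicing, held 3.52, 4.76 and 3.42 counts per 1e6 in proliferating and 3.82, 2.43 and 2.40 in differentiating WT. Its stages overlapped, and its fitted change of 0.08 turned to -0.42 with gene body scaling. Mcl1 (chr3:95656944-95663179), an anti-apoptotic BCL2-family gene, held 4.84, 7.51 and 4.47, then 3.11, 2.11 and 2.75. Its P of 1.61 and D of 1.63 were alike, with an input of 20 counts in proliferating and 10 in differentiating cells, and its stages did not overlap. IgG held 0.792 and 2.16 at Mcl1, the latter above differentiating WT replicate 2. The WT over IgG difference of 1.34 did not pass (edgeR, Benjamini-Hochberg adjusted p = 0.108). Gab1 (chr8:80764431-80880519), an adaptor gene of receptor tyrosine kinases, held 4.18, 8.27 and 3.81, then 3.59, 1.72 and 2.52, with inputs of 21 and 10 counts.

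In the remaining windows with the largest D minus P the stages overlapped. Pik3r3 (chr4:116221400-116303056), a regulatory subunit gene of PI3-kinase, held 2.42, 2.00 and 3.42 counts per 1e6, then 2.79, 2.27 and 2.17. Pxdn (chr12:29936642-30017658), a peroxidase gene of basement membrane crosslinking, held 3.52, 3.01 and 3.02, then 3.59, 2.03 and 1.87. Ptpa (chr2:30416050-30447807), an activator gene of the phosphatase PP2A, held 1.98, 1.75 and 3.02, then 2.63, 1.96 and 2.93. Their fitted changes were 0.29, 0.13 and 0.58, none past the test, and with gene body scaling they were -0.20, -0.36 and 0.087.

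The counts of list members below stand beside 3.38% of all eligible windows retained and 19.2% of those with a P of at least 1. For lists of this size a count of 0 or 1 is near that background. The gene lists were chosen with earlier results of these data known, so the counts are a description. Among genes of neural stem and progenitor cells, 9 of 22 eligible list members were retained and 15 had a P of at least 1. Among the 9 were Sox2, Tcf7l1, Notch1, Olig2, Id4, Id2, Fabp7 and Nes. Sox2, a gene for a core stem cell factor, held 4.62, 7.01 and 6.31 counts per 1e6 in proliferating and 4.30, 1.41 and 3.05 in differentiating WT, against inputs of 1.35 and 1.34 and IgG of 1.98 and 1.44. Its stages did not overlap, its lowest differentiating library lay at the level of the controls, and its change of -0.54 did not pass. Notch1, the receptor gene that keeps progenitors undifferentiated, held 6.60, 5.76 and 5.52, then 3.27, 1.80 and 1.93, against inputs of 1.94 and 1.18. It was called lower (-0.86, SE 0.27, edgeR, Benjamini-Hochberg adjusted p = 0.0303). Tcf7l1, a repressor gene of the Wnt pathway, held 3.08, 3.01 and 2.76, then 2.07, 1.33 and 1.58, against 1.18 and 0.788. It did not pass the stage test, although no differentiating value reached the proliferating ones.

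Of 19 eligible genes of neuronal differentiation, 5 had a P of at least 1 and none was retained, where 3.38% of all eligible windows were. The medians over these 19 windows were 0.39 for P and -0.20 for D, against 1.25 and 0.63 over the 22 progenitor windows. Of astrocyte genes 2 of 12 were retained, Glul, which encodes glutamine synthetase, and Slc1a3, a glutamate transporter gene that radial glia also express. Glul held 1.98, 4.76 and 2.76 counts per 1e6, then 1.35, 1.88 and 2.34, and Slc1a3 held 3.74, 4.01 and 3.68, then 2.55, 2.19 and 1.87. IgG held 0.396 and 1.80 at Glul and 2.38 and 1.80 at Slc1a3. Differentiating WT thus lay close to IgG at both genes. The stages overlapped at Glul and not at Slc1a3. No window was retained among 9 oligodendrocyte lineage, 9 microglia, 9 endothelial, 6 mesenchymal and meningeal and 19 liver, muscle and blood genes that were eligible, lists too short to differ from the 3.38% of all windows by a count of 0. Only 3 of the first and 1 of the fourth of these lists had a P of at least 1.

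Of 32 eligible immediate early and signal-responsive genes, 25 had a P of at least 1 and 7 were retained: Mcl1, Zfp36l2, Btg1, Spry2, Srf, Bhlhe40 and Jun. Spry2, a feedback inhibitor gene of growth factor signalling, held 5.50, 8.52 and 9.85 counts per 1e6 in proliferating and 4.14, 2.43 and 2.93 in differentiating WT, against inputs of 1.35 and 1.34 and IgG of 0.792 and 0.722. It was called lower on differentiation (-0.87, SE 0.26, edgeR, Benjamini-Hochberg adjusted p = 0.0265) and higher than IgG (2.82, SE 0.65, adjusted p = 0.00468, 2 IgG counts a stage). Btg1, an antiproliferative gene, held 3.96, 7.01 and 5.78, then 2.79, 2.50 and 2.05, and Zfp36l2, a gene for an RNA decay factor, held 2.20, 6.76 and 4.34, then 3.11, 2.19 and 3.05. The stages overlapped at Zfp36l2 and not at Btg1, and neither passed. Srf, the serum response factor gene, had the largest fall of any retained window (-1.78, SE 0.27, edgeR, Benjamini-Hochberg adjusted p = 1.24e-07) and was picked out for it. It passed with each of the 6 libraries left out in turn, with changes of -1.93 to -1.66 and a largest adjusted p of 0.000105.

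Chromatin genes gave 9 retained of 52 eligible windows, 27 of which had a P of at least 1. The 9 were Kdm3b, Kdm7a, Kmt2e, Kdm5b, Hdac2, Chd2, Kdm2b, Smarca5 and Smarcd1. Kdm7a, a histone demethylase gene, held 3.96, 4.51 and 5.12 counts per 1e6 in proliferating and 2.71, 1.64 and 2.11 in differentiating WT, against inputs of 1.01 and 0.946. Kmt2e, which encodes a SET-domain protein, held 3.52, 6.26 and 5.78, then 2.31, 1.49 and 2.75, against 1.01 and 1.02. The stages did not overlap at either gene, and neither passed the stage test, while both were higher than IgG, by 2.12 (SE 0.65) and 2.23 (SE 0.65) in edgeR (Benjamini-Hochberg adjusted p = 0.034 and 0.0246). Kdm3b, another demethylase gene, held 3.08, 3.76 and 4.34, then 1.91, 1.72 and 1.93, with 1 IgG count in each stage. Kdm5b, a demethylase gene of H3 lysine 4, spread widely in proliferating cells (1.54, 3.01 and 5.78, then 2.95, 1.33 and 2.11). Counting all genes named Kdm, a group formed after the values were seen, 5 of 12 eligible were retained.

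**Figure D4:**
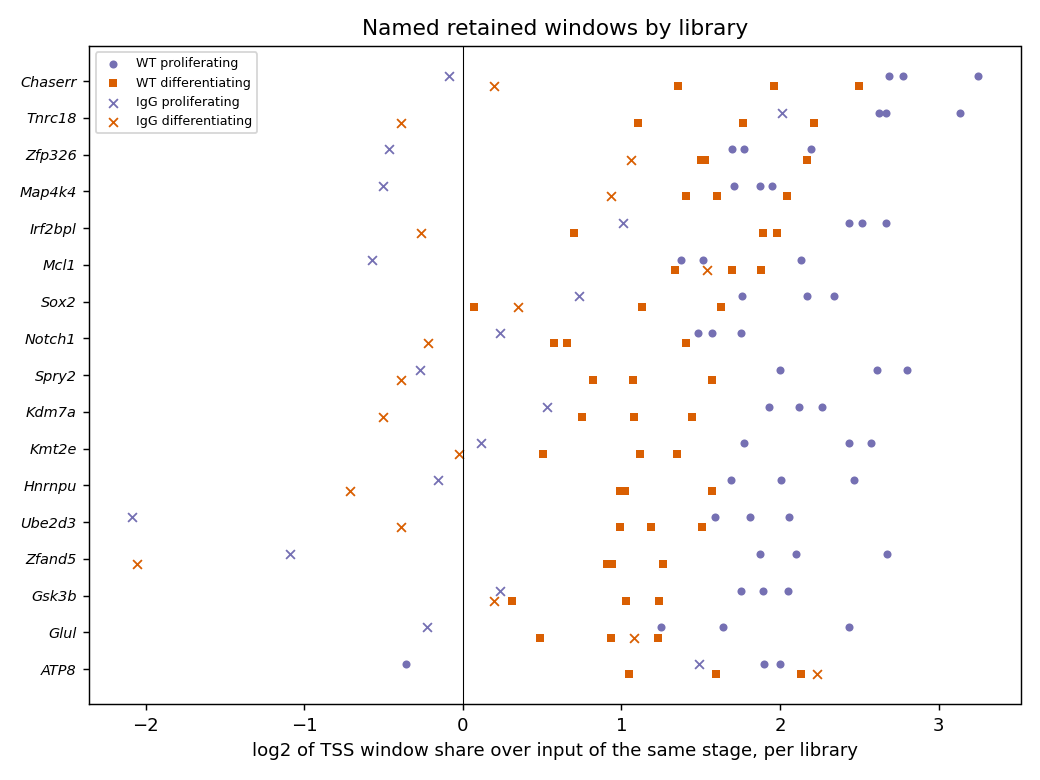
Points give the log2 ratio of a library's TSS window share to the input of its stage (x axis) for 17 named retained genes, with WT proliferating in circles, WT differentiating in squares and IgG in crosses. The squares lie left of most circles but right of 0. At ATP8 the proliferating IgG cross lies among the WT points and the differentiating IgG cross right of all of them. IgG crosses also lie among the WT points at Tnrc18, Irf2bpl, Mcl1, Sox2 and Glul.

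Of 33 eligible RNA-binding and splicing genes, 29 had a P of at least 1 and 12 were retained, among them Tardbp, Srsf1, Ddx5, Celf1 and Elavl1. Hnrnpu, a gene for a nuclear matrix RNA-binding protein, held 5.50, 9.52 and 6.96 counts per 1e6 in proliferating and 3.43, 2.27 and 2.34 in differentiating WT, against inputs of 1.68 and 1.10 and IgG of 1.19 and 0.361. It was called lower on differentiation (-0.95, SE 0.27, edgeR, Benjamini-Hochberg adjusted p = 0.0156) and higher than IgG (2.66, SE 0.65, adjusted p = 0.0071). Rbm39, a splicing cofactor gene, held 7.04, 6.01 and 7.09, then 3.59, 3.05 and 2.69, without overlap of the stages. Its P and D were close, 1.22 and 1.21, and its input was 34 counts in proliferating and 16 in differentiating cells. Hnrnpc, which packages nascent transcripts, held 2.86, 3.51 and 3.55, then 1.91, 1.64 and 2.05, and Clk1, a kinase gene for SR splicing factors, held 3.30, 5.51 and 5.52, then 2.79, 1.88 and 2.75. IgG held 1.19 and 1.44 at Hnrnpc, near differentiating WT. At Clk1 it held 3.56 and 0.361, and the proliferating value exceeded WT replicate 1. Neither gene passed the stage test.

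Of 28 eligible genes of ubiquitin and protein quality control, 21 had a P of at least 1 and 11 were retained, among them Vcp, Usp22, Ube3a and Mdm2. Ube2d3, a gene for a ubiquitin-conjugating enzyme, held 4.84, 6.76 and 5.78 counts per 1e6 in proliferating and 2.07, 1.80 and 2.64 in differentiating WT, against inputs of 1.60 and 0.867 and 0 and 1 IgG counts. Zfand5, a proteasome activator gene, held 5.94, 10.5 and 7.09, then 3.51, 2.74 and 2.81, against inputs of 1.60 and 1.42 and 1 and 0 IgG counts. Both were called lower on differentiation, with changes of -0.88 (SE 0.27) and -0.86 (SE 0.26) in edgeR (Benjamini-Hochberg adjusted p = 0.0266 and 0.0293). Cul5, a scaffold gene of cullin ligases, held 3.74, 4.26 and 5.26, then 2.63, 1.96 and 2.17. It did not pass, and the stages did not overlap in any of these 3 genes.

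Protein kinases and phosphatases gave 7 retained of 31 eligible windows, 25 of which had a P of at least 1. Among them were Map4k4, Csnk1a1, Csnk1g3, Gsk3b and Cdk19. Gsk3b, a kinase gene that restrains Wnt signalling, held 3.96, 3.51 and 3.28 counts per 1e6, then 2.15, 1.10 and 1.87, against inputs of 0.927 and 0.867. The casein kinase genes Csnk1a1 and Csnk1g3 held 4.18, 7.26 and 5.39, then 2.55, 2.27 and 2.23, and 4.18, 5.76 and 4.86, then 2.63, 1.88 and 2.75. IgG held 0.792 and 0.722 at Gsk3b, 2.38 and 2.16 at Csnk1a1 and 1.19 and 0 at Csnk1g3. Differentiating WT thus lay close to IgG at Csnk1a1. None of the 3 passed the stage test, and in none did the stages overlap. Of 24 eligible cell cycle genes 9 had a P of at least 1 and none was retained, and of 26 ribosomal protein genes 10 did and 1 was retained, Rps14, with 4.40, 4.51 and 3.68, then 2.07, 1.96 and 1.87 counts per 1e6.

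Apart from Srf, 8 named retained genes were called lower on differentiation, and each lost that call without some single libraries. Without proliferating replicate 3 none of the 8 passed (edgeR, Benjamini-Hochberg adjusted p from 0.0743 for Hnrnpu to 0.285 for Spry2), and without differentiating replicate 2 none did (0.0596 for Hnrnpu to 0.246 for Irf2bpl). Without differentiating replicate 3, Irf2bpl and Ube2d3 passed and the other 6 did not (0.0651 for Tnrc18 to 0.191 for Notch1). Without proliferating replicate 2, Chaserr, Hnrnpu, Ube2d3 and Zfand5 did not pass (0.0749 to 0.156). Notch1 did not without proliferating replicate 1 (0.0593) and Ube2d3 did not without differentiating replicate 1 (0.0944). All 8 changes were negative in each of these fits.

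By gene kind, 610 retained windows (93.7%) belonged to protein-coding genes, as did 93.8% of lost and 82.1% of eligible windows. Another 30 (4.61%) belonged to lncRNA genes, which made up 4.53% of lost and 8.31% of eligible windows. Among them were Chaserr, Dancr, Zfas1, Cahm, Mir99ahg, Sp3os and Zfp335os. There were 2 transcribed pseudogenes and 9 genes with no RefSeq entry. None of 227 eligible pseudogenes and none of 107 eligible V segments of immune receptors was retained. No olfactory receptor gene was retained of 831 eligible, no vomeronasal receptor gene of 177 and no Hox gene of 26. Of all eligible windows 3.38% were retained, so a count of 0 among 26 is near background. Only 3 olfactory receptor windows, 1 vomeronasal receptor window and 0 Hox windows had a P of at least 1. Groups by name were formed after the values were seen. The gene kinds of retained windows were close to those of lost ones. In 5 cases a pair of retained windows overlapped and shared counts (Strn3 and Ap4s1, Wbp4 and Elf1, Zfp335 and Zfp335os, Spata2 and Rnf114, and 5930403L14Rik and Prdm16), so that 646 remain when each pair is counted once. Whether the counting used strand is not given in the sources used here.

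Retained windows belonged to longer genes than other eligible windows. Over nuclear protein-coding genes the median length was 36953 bases at retained, 27317.5 at lost and 15767 at eligible windows. Genes under 5 kb made up 9.05%, 11.3% and 23.6% of these sets, and genes over 100 kb made up 16.4%, 14.4% and 10.0%. None of these genes of at most 1 kb was retained, of 1018 eligible. The share retained was 1.56% at 1 to 3 kb, 2.59% at 3 to 10 kb, 3.13% at 10 to 30 kb, 6.995% at 30 to 100 kb, 6.85% at 100 to 300 kb and 4.34% above. The share with a P of at least 1 followed the same course, from 1.57% in the shortest genes to 31.9% at 100 to 300 kb and 22.0% above. Among windows with a P of at least 1, the share retained was 15.4% to 17.8% in the bins from 1 to 30 kb. It was higher, 19.7% to 22.8%, in the bins above 30 kb, without a steady rise within either range. For lncRNA genes the median length was 8239.5 bases at retained, 5126.5 at lost and 8446 at eligible windows.

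**Figure D5:**
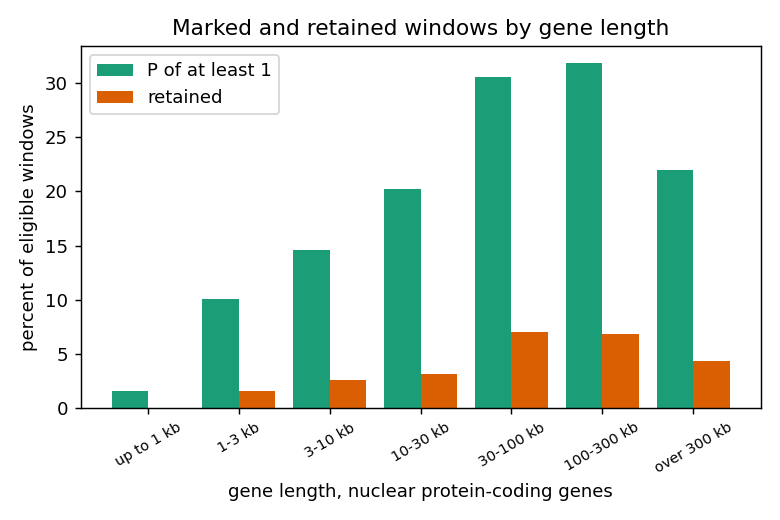
Bars give the percent of eligible windows of nuclear protein-coding genes (y axis) that had P of at least 1 and that were retained, by gene length (x axis). Both shares are largest between 30 and 300 kb, where 6.995% and 6.85% were retained, and the shortest bin has no retained window.

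No window of the X chromosome was retained, of 731 eligible. Only 27 of these had a P of at least 1, and the medians over all 731 were -0.27 for P and -0.60 for D. The X chromosome took 2.34% to 3.95% of gene body counts in the WT libraries, 3.22% and 3.53% in the inputs and 2.00% and 2.40% in IgG. The part of the differences in sex chromosome content between libraries was not tested. With IgG as the background in the rule, 59 of the 1101 windows chosen lay on the X. On the autosomes 1.94% (chromosome 7) to 6.25% (chromosome 12) of eligible windows were retained.

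Over the rest of the gene body, the medians of retained genes lay slightly below input in the WT libraries. Gene body totals are the depth and consist mostly of these same counts, so a level near 0 over all genes follows from the scaling. Only differences between the sets can be read. In the 577 retained genes of at least 5 kb, the median log2 level of the rest of the gene body over input was -0.19, -0.14 and -0.15 in the proliferating WT libraries. It was -0.10, -0.12 and -0.10 after differentiation. IgG stood at 0.01 and -0.03. In lost genes the WT median was -0.24 to -0.26 and -0.18 to -0.19, and in eligible genes -0.13 to -0.27 and -0.16 to -0.22. The retained medians lay above those of lost genes in both stages. The IgG medians did so too, with 0.014 at retained and -0.006 at lost genes before differentiation and -0.030 and -0.082 after it. After differentiation the retained WT medians also lay above those of eligible genes, as did the IgG median of retained genes. Before it they did so in replicates 2 and 3 and not in replicate 1. These medians cover the whole rest of a gene body, so signal just past the window, or before the start, is not resolved.

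Start regions of retained genes were rich in CpG, like those shown above, and slightly more so than those of lost genes. In the 300 bases around the RefSeq start of 512 retained genes the median number of CpG was 27, against 24 in 2168 lost and 14 in 13994 eligible genes. The median GC content was 66.7%, 63.3% and 56.3%. Letters searched on both strands were GGGCGG (the GC box), CCAAT, TGACGTCA (the CRE bound by CREB and ATF factors), TGANTCA (AP-1), CACGTG (an E-box), TATAAA and CCGGAAG (ETS), with the CArG box of SRF. The GC box was in 74.2% of retained, 71.1% of lost, 46.8% of eligible and 46.0% of all 18458 matched promoters. TATAAA was in 5.86%, 6.73%, 12.2% and 13.1% of these sets, and TGANTCA in 2.93%, 3.37%, 6.95% and 7.32%. CCAAT was in 33.2%, 38.0%, 39.2% and 39.2%, and CCGGAAG in 16.4%, 19.1%, 12.5% and 11.7%. TGACGTCA was in 3.91%, 4.43%, 2.40% and 2.34%, and among the 6 sequences shown it was in that of Irf2bpl. CACGTG was in 10.2%, 11.1%, 8.43% and 8.04%, and the CArG box in 1.37%, 1.38%, 1.51% and 1.59%. In CpG, GC content and these motifs, retained genes were closer to lost genes than to eligible genes. These matches are descriptions of letters.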

How the data were processed

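Per the submitters' processing notes, the authors used bcl2fastq and featureCounts with the mm10 genome, with no versions, and an aligner is not given in the sources used here. The files deposited by the authors hold raw read counts for each gene and each of 12 libraries, once for TSS windows and once for gene bodies. Gene length is another deposited column. The 24 tables per sample equalled the columns of the series tables. Gene bodies include the window.

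The members and gene lists were chosen with earlier results of these data known. Gene body totals served as depth, with 1 added to each count in P and D. In R 4.3.3, edgeR 4.0.16 (quasi-likelihood, two-sided, Benjamini-Hochberg over all windows, threshold 0.05) tested windows with a mean count of at least 10. The stage comparison took the 6 WT libraries with TMM. The comparison with IgG added the 2 IgG libraries and a stage term, with gene body totals as library sizes. Counts per 1e6 are per gene body total. DESeq2 1.42.0 was an alternative. The edgeR script was tested on simulated data with 200 changed genes. Of 27095 gene IDs 25204 matched RefSeq, and of the 651 members 642 did. Promoters and symbols come from RefSeq for GRCm38.

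Named genes were the 10 members with the highest D, the 6 with the highest D minus P at a summed differentiating count of at least 100, 3 windows on each side of the threshold on D, and up to 4 per gene list by D. Predicted, clone and microRNA names were passed over. Some genes this rule or the lists name are not reported here.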

Additional observations from a re-analysis of the deposited data

How the results depend on the processing

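The number of windows chosen by the rule (651) was 178 with a constant of 5 added, 1347 and 3 with input minimums of 5 and 20, 313 with TSS totals and 1074 with TMM totals as depth, 1101 with IgG as background and 206 when each library had to pass alone. Leaving out single WT libraries gave 481 to 896. Retained windows lower on differentiation (118) numbered 498 with gene body totals and 34 to 161 with single libraries left out, and none was higher under any setting run. A replicate block gave 58. Deviations of same-numbered libraries from their group means did not correlate (-0.02, -0.04 and 0.01), so the numbers were not taken to pair libraries. Retained windows higher than IgG (136) numbered 8 with TMM and 0 to 199 with single libraries left out. The IgG sum over input (1.17 in each stage) was 2.00 and 2.80 with an input minimum of 20, where 2 of 3 windows are mitochondrial, 1.30 and 1.05 with pooled inputs, and 1.13 and 1.04 without the mitochondrial windows, and 1.31 in differentiating cells with TSS totals. The null sum over input (1.28 and 1.37) was 7.31 and 5.68 with that minimum, 0.930 and 1.02 without mitochondrial windows, and 0.826 and 0.982 over IgG. Leaving out the mitochondrial windows and dividing by IgG were chosen after seeing the data. Among single genes, log2 stage changes changed sign with gene body totals for Zfp326 (-0.42), Pik3r3 (-0.20), Pxdn (-0.36) and Sh3bp5 (-0.43), and without a filter on low counts for Zfp326 (-0.023) and Sh3bp5 (-0.025). With single libraries left out they ran from -0.064 to 0.26 for Zfp326, -0.11 to 0.37 for Pxdn, -0.31 to 0.36 for Sh3bp5, -0.45 to 0.15 for Zfp36l2, -0.69 to 0.40 for Kdm5b and -0.41 to 0.10 for Glul. None of these 7 genes was called with a library left out. The cause was not tested. Depth limits single windows: input counts of 10 to 15, and 2 to 3 IgG counts at the median.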
